A study of Mus musculus with 2 samples.

Results

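A set of 10 genes of the G1 cell cycle machinery, out of the 32285 genes listed in the deposited matrix, were followed in mouse splenic CD8+ T cells that had been rested or stimulated for 30 h. They were chosen by name, with earlier results of these data known. They are the cyclins Ccnd2, Ccnd3, Ccne1 and Ccne2, the kinases Cdk4, Cdk6 and Cdk2, and the inhibitors Cdkn1a, Cdkn1b and Cdkn2c. All 10 were found in the matrix by symbol and all 10 had a unique molecular identifier (UMI, a tag that marks 1 captured RNA molecule) in every culture. The series concerns how T cells perceive antigen through long-lasting Erk and NFAT signals, and these genes describe where the cells stood on the way from rest to division.

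A T cell that leaves rest must pass from G1 into S phase. D-type cyclins bind Cdk4 and Cdk6, and E-type cyclins bind Cdk2, and these kinases phosphorylate the retinoblastoma protein Rb1, which releases E2F transcription factors that switch on S phase genes. Proteins of the Cip/Kip family (Cdkn1a, p21, and Cdkn1b, p27) bind cyclin and kinase together, whereas the INK4 protein Cdkn2c (p18) binds Cdk4 and Cdk6 themselves. Cdkn1b is known for its high level in resting lymphocytes and its loss after receptor stimulation, much of it at the protein level, which was not measured here.

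Wild-type (WT) mice gave the spleens. A single culture was left without stimulus (rested, the control). The other 5 cultures met plates on which biotinylated H-2Db molecules, each carrying a peptide, were held by streptavidin: the peptide named M9C at 20, 2 and 0.2 pmol, and the peptide named L6F at 80 and 20 pmol. The T cell receptor of the cells, the number of mice and their age are not stated in the labels or files read here. Each culture received its own hashtag, a barcoded antibody that marks the culture a cell came from. Live cells, sorted by exclusion of propidium iodide, then shared a single lane of a 10x Genomics droplet run. Every condition was therefore 1 culture, no spread between replicates could be measured, and no p-value is given. The intervals below are 95% intervals for counting error alone.

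The top hashtag, at 20 or more counts and 80% or more of a barcode's hashtag counts, gave a condition to 11671 of 13439 barcodes. Barcodes under 500 genes or with over 10% of UMIs from mitochondria were then left out. This left 755 rested cells, with 1869, 1703 and 1589 cells at 20, 2 and 0.2 pmol M9C and 2207 and 2477 cells at 80 and 20 pmol L6F. The filters took away 52.3% of the rested cells and 1.43 to 3.71% of the stimulated ones. Rested cells held 918920 UMIs in all, against 11376897 to 16014100 per stimulated culture. Their median was 1056 UMIs per cell, and stimulated cells held 5.73 to 6.74 times as many. The 5 CD8 T cell markers were present in every culture, with a summed level of 3518 CPM (UMIs of a gene over all UMIs of a culture's cells, scaled to a common total) at rest and 1810 to 1955 CPM after stimulation, while Cd4 stood at 0 to 0.0774 CPM. The sort did not select for CD8, and summed markers of the other cell types stood at 779 CPM at rest against 79.3 to 146 CPM after stimulation. Of these, the gamma-delta T cell marker Trdc alone stood at 398 CPM at rest and 52.6 to 96.8 CPM after stimulation.

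All levels are given in CPM. Because stimulated cells held so much more RNA, an equal CPM at rest and after stimulation means more molecules per cell after it. In sums over a culture, a change in the number of cells that express a gene and a change in its RNA per cell cannot be told apart. A member was counted as higher or lower than at rest where its CPM ratio passed 2-fold and the interval excluded equality, provided that 1 of the conditions compared held at least 10 CPM of it. Cdkn1a and Cdkn2c did not reach 10 CPM anywhere and stand outside those counts.

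Of the 8 members measured, 4 were at least 2-fold higher at 20 pmol M9C than at rest (Ccne1, Ccne2, Cdk2 and Cdk4) and 2 were at least 2-fold lower (Cdk6 and Cdkn1b). Over all 7779 genes measured in that comparison, 16.9% were higher and 16% lower. The same 4 genes were higher in the other 4 stimulated cultures, where 16.7% (2 pmol M9C), 16.5% (0.2 pmol M9C), 13.5% (80 pmol L6F) and 14.3% (20 pmol L6F) of genes were. Cdkn1b was the 1 member lower in those 4 cultures, in which 16.4%, 16.3%, 13.3% and 14% of genes were lower, in the same order. The median log2 ratio of the 8 members lay between 0.70 and 0.78 in the 5 comparisons, which share the rested cells, and that of all genes between 0.07 and 0.10. The split of all genes moved with the scaling: 18.4 to 21.7% were higher and 9.90 to 13.4% lower over the 5 comparisons with TMM normalisation factors, and 8.24 to 10.2% and 19.8 to 22.5% when ribosomal protein, mitochondrial, Malat1 and Gm42418 UMIs were left out of the totals. The plot of levels by culture shows the 10 genes side by side.

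**Figure D1:**
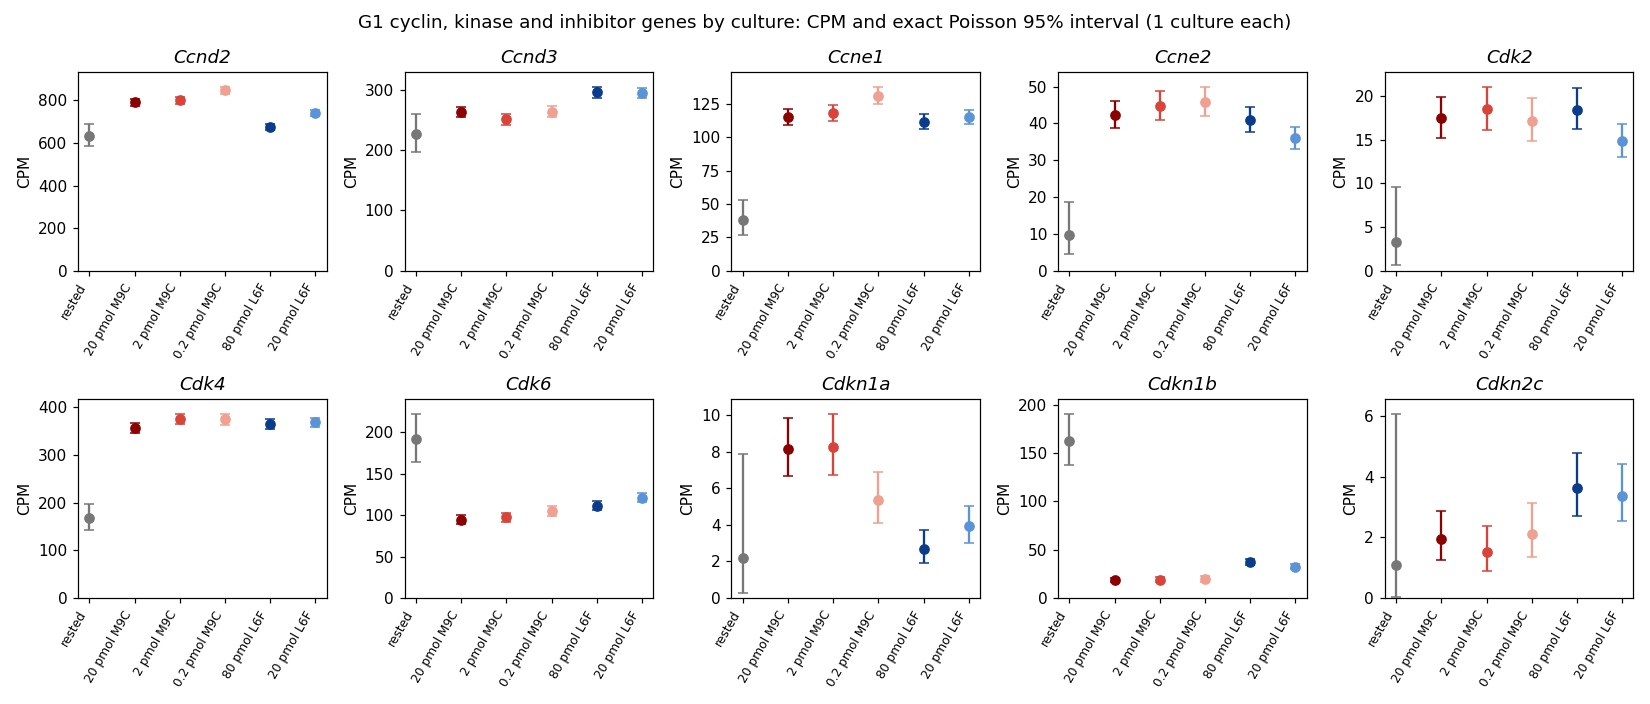
Level of each member in the 6 cultures, in CPM on a scale of its own for each gene, with exact Poisson 95% intervals for counting error. Points are single cultures. Cdkn1b and Cdk6 sit highest in rested cells, and the points of all other members sit lowest there. For Ccnd2, Ccnd3, Cdkn1a and Cdkn2c the rested interval overlaps that of a stimulated culture.

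Among the D-type cyclins, Ccnd2 (GRCm38 chromosome 6, chr6:127125162-127152193, minus strand) differed little in CPM. It stood at 634 CPM in rested cells, at 790, 799 and 847 CPM at 20, 2 and 0.2 pmol M9C, and at 673 and 741 CPM at 80 and 20 pmol L6F. All stimulated cultures lay above rest, by 1.06 to 1.34 times, and the 80 pmol L6F culture was the 1 whose interval included equality (0.976 to 1.16). In molecules, a rested cell held 0.772 Ccnd2 UMIs on average and a stimulated cell 4.21 to 6.06. A Ccnd2 UMI was seen in 52.5% of rested cells and in 92.1 to 97.1% of stimulated ones at their full depths (medians of 1056 and 6050 to 7114 UMIs). Cells with 1000 UMIs or more were also thinned to 1000 UMIs each, and the others were left out of the thinned shares. This kept 464 of 755 rested cells but nearly all stimulated ones (1862 of 1869 at 20 pmol M9C). The thinned shares were 47.4% and 47.5 to 56.6%. Transcripts of this cyclin were thus found in a large share of these deeper rested cells too, at equal depth.

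Ccnd3 (chr17:47505051-47599691, plus strand), the other D-type cyclin, stood at 226 CPM at rest, at 263, 251 and 264 CPM at 20, 2 and 0.2 pmol M9C, and at 296 and 295 CPM at 80 and 20 pmol L6F. Here the L6F cultures were the highest, 1.31 and 1.30 times rest (intervals 1.14 to 1.51 and 1.13 to 1.50). Ccnd2 went the other way between the peptides, so that its share of the UMIs of the D-cyclin pair separated them. That share does not depend on how a culture is scaled. It was 75.0, 76.1 and 76.3% in the M9C cultures (20, 2 and 0.2 pmol) and 69.5 and 71.5% in the L6F cultures (80 and 20 pmol), with 73.7% (70.5 to 76.7%) at rest. The lowest M9C share, at 20 pmol, had an interval of 74.3 to 75.8%, and the highest L6F share, at 20 pmol, one of 70.8 to 72.2%.

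Cdk4 and Cdk6 are the kinases that D-type cyclins activate, and they moved in opposite directions on the CPM scale. Cdk4 (chr10:127063534-127067920, plus strand) stood at 169 CPM at rest and at 355, 375 and 374 CPM at 20, 2 and 0.2 pmol M9C. With L6F it stood at 365 CPM (80 pmol) and 368 CPM (20 pmol). The 5 stimulated cultures lay within 1.05 times of each other and 2.11 to 2.22 times above rest (for 20 pmol M9C, interval 1.79 to 2.49). This lay close to the 2-fold line, and Cdk4 fell short of it in all 5 comparisons under 3 other settings. Its log2 ratios were 0.83 to 0.91 with ribosomal protein, mitochondrial, Malat1 and Gm42418 UMIs left out of the totals, 0.92 to 0.97 with HTODemux hashtag calls, and 0.26 to 0.34, with intervals that include equality, with at least 1000 genes per cell. Of the cells thinned to 1000 UMIs, 15.5% of rested and 28.7 to 32.0% of stimulated ones had a Cdk4 UMI. At full depth 16.6% and 82.8 to 88.6% of all cells did.

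Cdk6 (chr5:3341485-3531008, plus strand) stood at 192 CPM at rest, and at 94.3, 97.1 and 104.5 CPM at 20, 2 and 0.2 pmol M9C. With L6F it stood at 111.5 CPM (80 pmol) and 120.6 CPM (20 pmol). Rested cells were the highest, 2.03 times the 20 pmol M9C culture (1.72 to 2.38) and 1.59 to 1.97 times the other 4, so that the 2-fold line fell among cultures that differed little. With TMM normalisation factors the 20 pmol M9C culture also fell short of 2-fold. Per cell, Cdk6 molecules were more numerous after stimulation, 2.80 to 3.34 times rest. Cdk6 made up 53.2% (47.6 to 58.6%) of the UMIs of the kinase pair at rest and 20.6 to 24.7% after stimulation, which is again free of the scaling.

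Cdk2 (chr10:128697939-128705031, minus strand), the partner of E-type cyclins, was sparse at rest, with 3 UMIs in 755 cells (3.26 CPM). It stood at 17.4, 18.4 and 17.1 CPM at 20, 2 and 0.2 pmol M9C and at 18.4 and 14.8 CPM at 80 and 20 pmol L6F. The ratios of 4.53 to 5.65 have wide intervals for that reason (at 20 pmol M9C 5.34, 1.80 to 26.1). With a hashtag share of 95% asked of each cell, 19 rested cells and no rested Cdk2 UMI were left, and the direction could not be read. With 1000 genes asked of each cell Cdk2 was no longer counted as higher in any of the 5 cultures.

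Promoter letters of the kinases are given as a description, and no link between them and the levels was tested. The RefSeq promoter table (GRCm38.p6) was read over the 250 bases before each start. It held 8 of the 10 members, and Ccnd2 and Ccne2 were not matched. Letters of 3 kinds were looked for on both strands: the E-box CACGTG, which Myc and related factors can bind, the E2F letters TTTCCCGC, TTTCGCGC, TTTGCCGC and TTTGGCGC, and the FoxO letters GTAAACA. Stretches with a match are printed 5′ to 3′ on the strand of the gene, with the matched letters in capitals. They are Cdk4 at chr10:127063355-127063529 (plus strand), Cdk6 at chr5:3343658-3343693 (plus) and Cdk2 at chr10:128705164-128705211 (minus).
Cdk4: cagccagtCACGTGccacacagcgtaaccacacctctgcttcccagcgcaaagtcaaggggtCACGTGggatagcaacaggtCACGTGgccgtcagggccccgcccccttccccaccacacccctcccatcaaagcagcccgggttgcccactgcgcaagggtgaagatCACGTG
Cdk6: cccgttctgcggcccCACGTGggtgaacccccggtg
Cdk2: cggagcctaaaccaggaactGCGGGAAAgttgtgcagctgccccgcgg

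Cdk4 held 4 E-boxes, which begin 172, 118, 98 and 11 bases before the start, and Cdk6 held 1, beginning 220 bases before it. The Cdk6 start used here lies inside the gene span given above, and not at its edge. An E-box was present in 6.02% of the 32851 promoters. In Cdk2 an E2F match on the reverse strand began 140 bases before the start (1.86% of promoters hold one), and Ccnd3 had 1 FoxO match (3.17%). None of these letters was in the windows of Ccne1, Cdkn1a, Cdkn1b or Cdkn2c. A match says only that the letters are there, and binding was not measured.

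Both E-type cyclins, which activate Cdk2 at the G1 to S boundary, were higher in every stimulated culture. Ccne1 (chr7:38097984-38107534, minus strand) stood at 38.1 CPM at rest, from 35 UMIs, and at 115.2, 118.3 and 131.3 CPM at 20, 2 and 0.2 pmol M9C. With L6F it stood at 111.7 CPM (80 pmol) and 115.0 CPM (20 pmol). Rest lay 2.93- to 3.45-fold below the stimulated cultures (at 20 pmol M9C 3.02-fold, 2.16 to 4.36). Ccne2 (chr4:11191351-11204779, plus strand) stood at 9.79 CPM at rest, from 9 UMIs, at 42.3, 44.7 and 45.9 CPM at 20, 2 and 0.2 pmol M9C, and at 40.9 and 36.0 CPM at 80 and 20 pmol L6F. Its ratios were 3.67 to 4.68 (at 20 pmol M9C 4.32, 2.26 to 9.51). Ccne1 gave 72.6 to 76.2% of the UMIs of the E-cyclin pair after stimulation and 79.5% (64.7 to 90.2%) at rest, so the balance of the pair at rest could not be told from that after stimulation at this depth.

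The rested E-cyclin levels rested on few cells. Among the 755 rested cells, 47 had 1000 genes or more. They held 15.8% of the rested UMIs, but 22 of the 35 Ccne1 UMIs (62.9%) and 5 of the 9 Ccne2 UMIs (55.6%). Ccne1 stood at 151.4 CPM in those 47 cells and at 16.8 CPM in the other rested cells. When a minimum of 1000 genes was asked of every cell, Ccne1 was lower after stimulation than in the 47 rested cells left, by 0.21 to 0.44 on the log2 scale, and neither E-type cyclin was counted as higher (log2 ratios of 0.0665 to 0.41 for Ccne2). With a hashtag share of 95%, which left 19 rested cells, neither was counted as higher, and no rested Ccne2 UMI was left. The same 47 cells held 8.72% of the rested Cdkn1b UMIs and 27.7% of the Cdk4 UMIs. Whether they are activated cells, cells with a wrong hashtag or doublets was not tested.

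**Figure D2:**
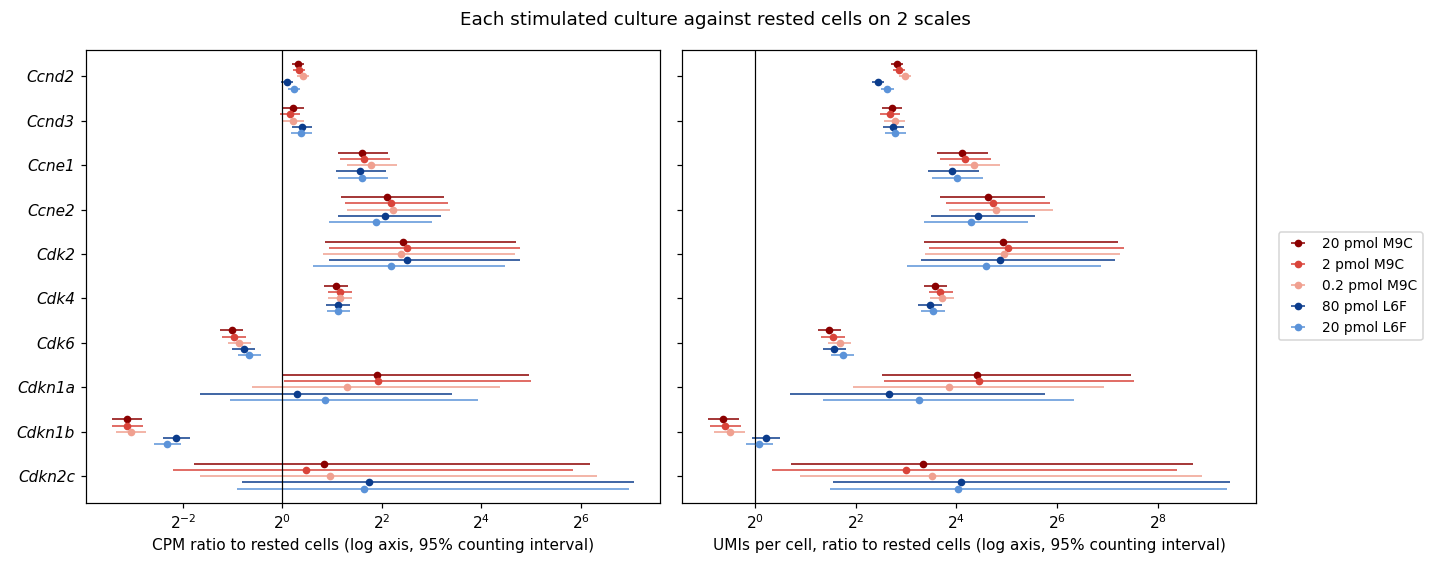
CPM ratios (left) and ratios of UMIs per cell (right) of each stimulated culture to rested cells, on log axes with 95% counting intervals; colours mark the 5 cultures. On the CPM scale 4 genes lie above 2-fold in all 5 cultures and Cdkn1b lies lowest, while per cell Cdkn1b alone reaches down to or below equality.

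Of the inhibitors, Cdkn1b (chr6:134920401-134925513, plus strand) was the member furthest from rest. It stood at 162 CPM in rested cells, at 18.5, 18.7 and 19.6 CPM at 20, 2 and 0.2 pmol M9C, and at 36.8 and 32.6 CPM at 80 and 20 pmol L6F. The 3 M9C cultures lay 8.27- to 8.76-fold below rest (at 20 pmol 7.09 to 10.8) and the L6F cultures 4.40-fold (80 pmol, 3.64 to 5.29) and 4.97-fold (20 pmol, 4.12 to 5.98) below it. The levels thus formed 3 steps: rest, L6F and M9C. With at least 1000 genes per cell it remained lower than at rest, by less: log2 ratios were -2.27 to -2.19 with M9C and -1.47 to -1.30 with L6F. Within a peptide the neighbouring doses did not differ beyond counting error, as the ratio of 80 to 20 pmol L6F was 1.13 (0.998 to 1.28) and that of 20 to 0.2 pmol M9C was 0.944 (0.783 to 1.14).

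Counted in molecules per cell, the fall of Cdkn1b was much smaller. A rested cell held 0.197 Cdkn1b UMIs on average, a cell at 20, 2 and 0.2 pmol M9C 0.128, 0.132 and 0.140, and a cell at 80 and 20 pmol L6F 0.230 and 0.211. M9C cells thus had 0.648, 0.666 and 0.711 times the rested number (at 20 pmol 0.526 to 0.801), and L6F cells 1.17 (0.970 to 1.41) and 1.07 times (0.888 to 1.29). On this scale the median of all genes shifted up by 2.43 to 2.65 log2 units, 90.7 to 91.8% of genes were counted as higher, and 7 of the 8 measured members were higher and 0 lower. Cdkn1b was the exception among the members. At full depth 18.3% of rested, 11.7 to 12.6% of M9C and 18.1 to 19.3% of L6F cells had a Cdkn1b UMI. Of the cells thinned to 1000 UMIs, 15.3%, 1.51 to 2.41% and 3.24 to 4.18% did, in the same order.

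Free RNA in the droplets can give a cell UMIs of genes it does not express. No cell type that lacks the members was set apart, so genes of stimulated cells were read in rested cells in its place. Ccl3, Ccl4, Xcl1 and Tnfrsf4 stood in rested cells at 2.31 to 4.33% of their CPM at 20 pmol M9C, and a UMI of them was seen in 0.431 to 1.51% of thinned rested cells. The rested level of the members that were higher after stimulation was 18.7% (Cdk2), 23.1% (Ccne2), 33.1% (Ccne1) and 47.5% (Cdk4) of that at 20 pmol M9C. For Ccne2, Ccne1 and Cdk4 the counting intervals lay above those values of the comparators, with lower bounds of 10.5, 22.9 and 40.2%. For Cdk2, with 3 rested UMIs, the interval of 3.84 to 55.5% reached into them. The rested levels of the members include the 47 deeper cells described above. In the other rested cells Ccne2, Ccne1 and Cdk4 stood at 5.17, 16.8 and 144.8 CPM. At 20 pmol M9C they stood at 42.3, 115.2 and 355 CPM. No interval was computed without the 47 cells. The comparators were highest at 20 pmol M9C, so their rested share of an L6F level is larger. Xcl1 stood at 4.35 CPM at rest and 9.80 CPM at 20 pmol L6F. The comparators' own counting error was left out, and how much free RNA each culture gave was not tested. Free RNA in a shared lane can come from any culture. Shares of the 20 pmol M9C level therefore cannot tell its part in the rested levels of the members.

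Cdkn1a (chr17:29090976-29100727, plus strand), the inhibitor that p53 is best known to induce, was scarce. It had 2 UMIs at rest (2.18 CPM), and 105, 99 and 61 UMIs at 20, 2 and 0.2 pmol M9C (8.13, 8.26 and 5.36 CPM). At 80 and 20 pmol L6F it had 37 and 63 UMIs (2.68 and 3.93 CPM). The ratio to rest at 20 pmol M9C was 3.73, with an interval from 1.01 to 31.2, and at 80 pmol L6F it was 1.23 (0.318 to 10.6). The rested count sets no useful limit on it. A UMI of it was seen in 4.23% of cells at 20 pmol M9C, 1.90% at 20 pmol L6F and 0.265% of rested cells at full depth. When thinned, the shares were 0.967%, 0.203% and 0.216%, all below the comparators' highest share at rest, that of Ccl3. Ccl3 stood at 58.0 to 465 CPM in stimulated cells, far above Cdkn1a, so the shares are not alike. The part of free RNA in the Cdkn1a UMIs was not tested.

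Cdkn2c (chr4:109660876-109667189, minus strand) was the scarcest member, with 1 UMI at rest (1.09 CPM). It had 25, 18 and 24 UMIs at 20, 2 and 0.2 pmol M9C (1.94, 1.50 and 2.11 CPM), and 50 and 54 UMIs at 80 and 20 pmol L6F (3.63 and 3.37 CPM). No ratio to rest excluded equality (at 20 pmol M9C 1.78, 0.291 to 73.0), so no difference from rest was detectable at this depth.

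The second question was whether dose mattered once cells were stimulated. At 20 against 0.2 pmol M9C, 0 of the 8 measured members passed 2-fold in either direction, where 0.272% of 6973 genes were higher and 0.143% lower. The intervals that excluded equality were narrow and near 1: Ccne1 was 0.877 times as high at 20 as at 0.2 pmol (0.816 to 0.943), Cdk6 0.902 times (0.832 to 0.978), Ccnd2 0.933 times (0.907 to 0.959), and Cdk4 was 1.05-fold lower (1.01 to 1.10). Cdkn1a, below the minimum level, was 1.52 times as high at 20 pmol (1.10 to 2.11). Between these doses no member was further apart than Cdkn1a.

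At 80 against 20 pmol L6F, 0 members passed 2-fold, and so did 0% of 6956 genes in each direction. Ccnd2 was 0.909 times as high at 80 pmol (0.884 to 0.934) and Cdk6 0.925 times (0.864 to 0.989), while Ccne2 was 1.14 (1.01 to 1.28) and Cdk2 1.25 times as high (1.04 to 1.49). For the other 6 members the interval included equality, with Ccnd3 at 1.00 (0.962 to 1.05) and Cdk4 at 0.991 (0.954 to 1.03).

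The third question was whether the peptides differed at one dose. At 20 pmol, 0 of 8 measured members differed by 2-fold between M9C and L6F, against 0.884% of 7014 genes higher and 0.756% lower with M9C. The inhibitors were furthest apart, and they did not go one way. Cdkn1b was 1.76-fold lower with M9C (1.51 to 2.06) and Cdkn2c 1.74-fold lower (1.07 to 2.92), whereas Cdkn1a was 2.07-fold higher (1.50 to 2.87) at levels under the 10 CPM minimum. Among the others, Cdk6 was lower with M9C, at 0.782 times the L6F level (0.727 to 0.841), and Ccnd3 at 0.891 times (0.853 to 0.932). Ccne1 did not differ beyond counting error, with a ratio of 1.00 (0.935 to 1.07), and neither did Cdk4 (0.964, 0.928 to 1.00) or Cdk2 (1.18, 0.976 to 1.42).

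The doses of the peptides differ except at 20 pmol, so the other pairs are given side by side and no dose-matched reading is made of them. Over the 6 pairs of an M9C with an L6F culture, the interval placed M9C below L6F in 6 for Cdkn1b, 6 for Ccnd3, 5 for Cdk6 and 5 for Cdkn2c. It placed M9C above L6F in 6 for Ccnd2, 5 for Cdkn1a, 3 for Ccne2, 2 for Ccne1 and 1 for Cdk2. Cdk4 was apart in 0 pairs. The pairs share cultures and are not independent of each other.

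Some markers of other cells moved with the peptide as well. The summed markers of gamma-delta T cells stood at 55.3 to 59.3 CPM with M9C, 96.8 to 103.7 CPM with L6F and 428 CPM at rest, an order that Cdkn1b shares, and macrophage or monocyte markers at 2.67 to 11.3, 16.7 to 26.2 and 150 CPM. The gamma-delta sum was mostly 1 gene, Trdc, at 398 CPM at rest, 57.7 CPM at 20 pmol M9C and 90.4 CPM at 20 pmol L6F. Tcrg-C1 and Tcrg-C2 stood at 13.1 and 16.3 CPM at rest. They stood at 0.697 and 0.929 CPM at 20 pmol M9C and at 2.44 and 3.93 CPM at 20 pmol L6F. The macrophage or monocyte sum was mostly Lyz2, at 24.0 and 14.9 CPM with 80 and 20 pmol L6F. Cd68 stood at 1.67 to 1.94 CPM with M9C and 1.96 and 1.62 CPM with L6F. Erythroid markers stood at 3.69 to 41.1 CPM with M9C and at 2.47 and 3.50 CPM with L6F. Without cells that held 2 or more UMIs of other cell types, Cdkn1b kept its calls against rest. Its log2 ratio between the peptides at 20 pmol then stayed inside the counting interval found with those cells kept, -1.04 to -0.59.

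**Figure D3:**
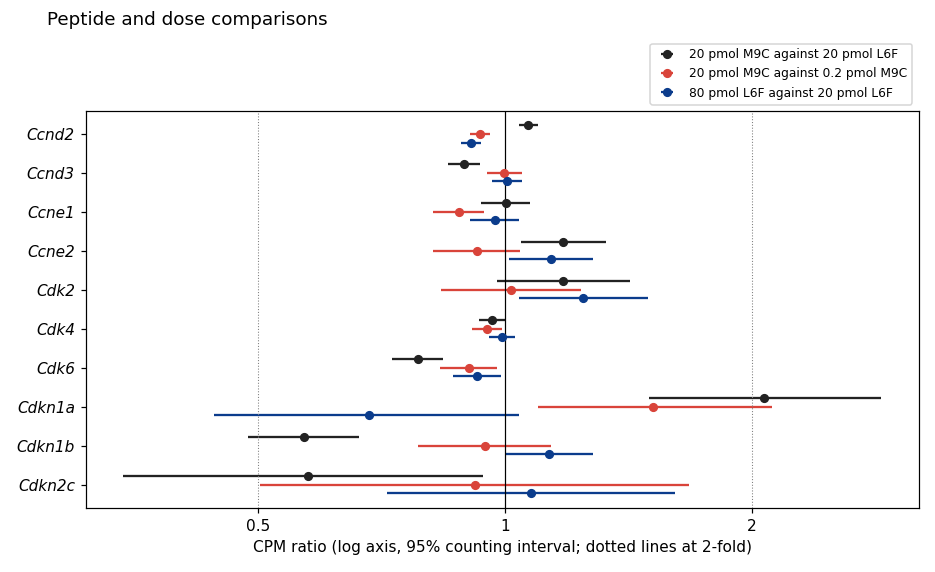
Ratios among stimulated cultures for the 10 members, on a log axis with 95% counting intervals: 20 against 0.2 pmol M9C, 80 against 20 pmol L6F, and 20 pmol M9C against 20 pmol L6F. Most points lie near 1, and the 3 inhibitors lie furthest from it between the peptides.

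E-type cyclins come and go within 1 cycle, so each stimulated culture was also divided by the cell cycle genes its cells held. Cells were ranked by the share of their UMIs in a list of S phase genes or of G2/M genes, neither of which holds a member, and the top 25% of cells were compared with the other cells. Rested cells were too shallow to rank. The top 25% is the upper end of a range and not a phase: 463 to 678 cells per culture lay within 10% of the S phase limit and 143 to 231 within 10% of the G2/M limit.

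Cells rich in G2/M transcripts held little Ccne2, at 10.8 to 21.6 CPM against 45.7 to 55.5 CPM in the other cells of the same culture. The ratio was 2.54- to 4.24-fold lower in 5 of 5 cultures. Ccne1 was 1.58- to 1.74-fold lower in 5 of 5 (75.1 to 92.4 against 125 to 146 CPM). The reverse held for Cdkn1b, which was 1.43- to 1.77-fold higher in those cells in 5 of 5 cultures (25.0 to 48.6 against 15.2 to 32.4 CPM). Cdkn2c was higher in 3 of 5, and its ratios ran from 0.512 to 3.93. Cdk4 and Ccnd3 had intervals that included equality in all 5 cultures, while Ccnd2 was lower in 3 of 5, by little (ratios of 0.865 to 1.00). Cdk2 was lower in 1 of 5, and Cdk6 and Cdkn1a were each higher in 1 of 5.

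Cells rich in S phase transcripts had more Ccne2 in 5 of 5 cultures (1.44 to 1.72 times), more Ccne1 in 4 of 5 (1.13 to 1.29 times over all 5) and more Cdk2 in 2 of 5 (1.01 to 1.43). Cdk4, Cdk6, Ccnd3, Cdkn1a and Cdkn2c were apart in 0 of 5. Ccnd2 was higher in 1 and lower in 2 of 5, and Cdkn1b was higher in 1 of 5. Depth differed along with these divisions. The S-rich cells had medians of 5382 to 6424 UMIs against 6285 to 7320 in the rest, and the G2/M-rich cells 6750.5 to 7882 against 5889 to 6992. When cells were instead ranked by total UMIs, the top 25% had 1.39- to 1.73-fold less Ccne2 in 5 of 5 cultures, less Ccne1 in 4 of 5 and less Cdkn1b in 2 of 5. Cdkn1b was higher there in 0 of 5, with ratios of 0.712 to 1.19. The part of depth in the differences by S phase and G2/M list, that of Cdkn1b included, was not tested.

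The difference of Cdkn1b between the peptides was present in both kinds of cell. At 20 pmol, G2/M-rich cells held 27.0 CPM with M9C and 42.8 CPM with L6F (1.59-fold lower, 1.24 to 2.05), and the other cells 15.2 and 28.6 CPM (1.88-fold lower, 1.54 to 2.31). Cdkn1a was higher with M9C in both, 1.92 times (1.09 to 3.44) and 2.15 times (1.44 to 3.23). For Cdkn2c both intervals included equality, at 1.50-fold (0.753 to 3.10) and 2.05-fold lower (0.991 to 4.57).

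**Figure D4:**
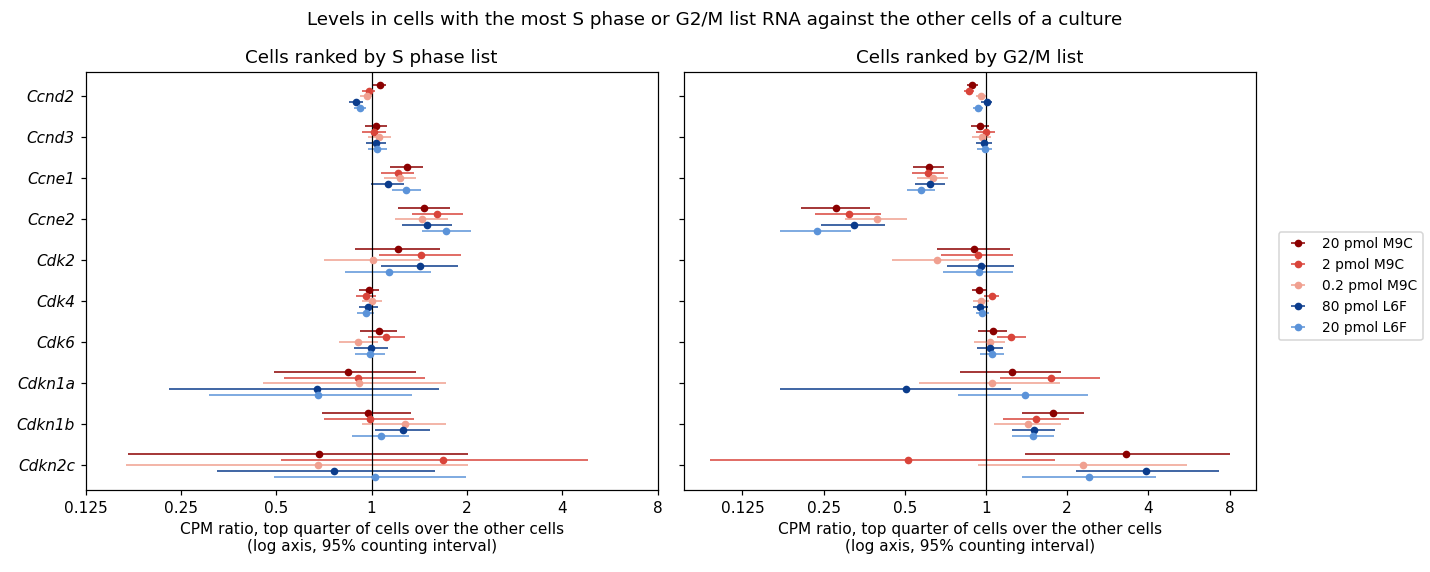
CPM ratio of each member in the top 25% of cells, ranked by S phase list (left) or G2/M list UMIs (right), to the other cells of the same culture, on log axes with 95% counting intervals; colours mark the 5 stimulated cultures. The points of Ccne2 and Ccne1 lie above 1 on the left and below it on the right in 5 of 5 cultures, and Cdkn1b lies above 1 on the right.

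Other genes of the pathway are given from lists of its known genes. Of 36 further genes around Rb and E2F, 30 were measured at 20 pmol M9C against rest, with 13 at least 2-fold higher, 2 lower and a median log2 ratio of 0.66. Over all genes measured in that comparison, 16.9% were higher and 16% lower. E2f3, an E2F that promotes transcription, was 6.22-fold higher (40.6 against 6.53 CPM, 2.84 to 17.0), and Ccna2, the cyclin that follows cyclin E, 5.53-fold (114.3 against 20.7 CPM, 3.53 to 9.21). Of 23 S phase genes that E2F controls, 22 were higher and 0 lower (median 1.87), such as the thymidine kinase gene Tk1 at 7.33-fold (4.27 to 13.8). Of 21 G2/M genes 20 were higher and 0 lower (median 1.82). At 20 pmol L6F the counts were 14 higher and 2 lower of 31 measured pathway genes, 23 of 23 S phase genes and 21 of 21 G2/M genes higher.

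Of 12 measured genes that p53 controls, 1 was at least 2-fold higher and 5 were lower at 20 pmol M9C than at rest, with a median of -0.00, against 16.9% and 16% of all genes. In the other 4 comparisons with rest 5 of the 10 or 11 measured were lower in each and 1 or 2 higher, and the medians were -0.85 and -0.92 at 2 and 0.2 pmol M9C and -0.75 and -0.84 at 80 and 20 pmol L6F. Trp53inp1 was 4.96-fold lower (2.34 to 9.82) and Bbc3, which encodes the death-promoting protein Puma, 3.19-fold lower (1.98 to 4.97). Between the peptides at 20 pmol, 0 measured genes of the 4 lists passed 2-fold. List genes under 10 CPM in both cultures stand outside that count. Among them the p53 gene Perp stood at 5.03 CPM with M9C and 1.87 CPM with L6F. Ccnd1, of the pathway list, stood at 0.0774 and 0.624 CPM. Rb1 itself stood at 8.75 CPM with M9C and 12.1 CPM with L6F (0.722 times, 0.568 to 0.915), and E2f2 at 20.6 and 26.3 CPM (0.783 times, 0.669 to 0.915). Of the p53 genes, Polk stood at 10.5 and 6.99 CPM (1.51 times, 1.16 to 1.95).

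For each member the genes with the most similar course over the 6 cultures were sought among 3602 genes, by the root mean square difference of log2(CPM + 1) values centred on their own mean. Nearest to Cdkn1b was Ramp1, a receptor-associated protein, with a difference of 0.0542 and levels of 103.4 CPM at rest, 12.7 to 13.1 CPM with M9C and 22.7 to 25.2 CPM with L6F. It shows the same 3 steps. S100a13 (0.0684) and Mgst2 (0.0715) followed. Nearest to Cdk4 were Eif2b5 (0.0166), Uba2 and Ptma, and nearest to Ccnd2 were Chmp4b (0.0290), the growth regulator Myc (0.0321) and Rbm27. Cdk6 was closest to Lamtor2 (0.0454), Arhgap9 and Mat2b.

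Ccnd3 was closest to Ncapd3 (0.0251), Smchd1 and Ctcf, and Ccne1 to Nudt5 (0.0341), Desi1 and Smyd5. Ccne2 was closest to Trip13 (0.0610), Eif2b1 and Pgam1, and Cdk2 to Hmgcs1 (0.0891), Hist1h4i and Rfc5. The scarce inhibitors had no near match: the closest gene to Cdkn1a was Cd5, a surface brake on receptor signalling, at 0.135, and the closest to Cdkn2c was Xbp1 at 0.129. Cd5 stood at 67.5 CPM at rest, 149.7 to 195 CPM with M9C and 83.6 to 87.3 CPM with L6F. These are descriptions over 6 cultures that share 1 lane.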

How the data were processed

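Whole-number UMI counts per gene and per hashtag for 13439 barcodes were deposited by the authors, who used, per the submitters' processing notes, bcl2fastq, Cell Ranger 6.0.1 and the mm10 (GRCm38) build. The annotation and the calling of cells: not given in the sources used here. All barcodes come from 1 RNA library and are distinct. Hashtag features were tied to conditions through the deposited table by the number they share. No doublet caller was run beyond the hashtag rule, which cannot show doublets within a culture. Python 3.11.15 with scipy 1.17.1 summed counts per condition. CPM intervals are exact Poisson, and intervals of ratios and shares exact Clopper-Pearson, all at 95%. They cover counting error only. The floor of 3 counts was 3.26 CPM at rest and 0.187 to 0.264 CPM elsewhere. With 1 culture per condition no count model was fitted. TMM factors came from edgeR 4.0.16 and other hashtag calls from HTODemux (Seurat 5.3.0, R 4.3.3), as alternatives. The ratio code was checked on simulated data. Positions are from GENCODE vM21.

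The text names all 10 members, the 2 genes of each list of pathway, E2F and p53 genes (at 10 CPM or more) furthest apart in a comparison with rest and between peptides, of which it gives most, the 3 most similar genes per member (among genes at 50 CPM or more in any condition), and fixed comparators for free RNA. The members and lists were chosen with earlier results of these data known. The comparators Mcpt8 and Prss34, meant as genes of rested cells, stood at 2.18 and 1.09 CPM there and were not used.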

Additional observations from a re-analysis of the deposited data

Results flagged for a closer look

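The number of Cdkn1b UMIs per cell moved in opposite directions from rest with the peptides. It was 0.648, 0.666 and 0.711 times the rested number at 20, 2 and 0.2 pmol M9C, and 1.17 and 1.07 times at 80 and 20 pmol L6F. All M9C cultures lay below 1 and both L6F cultures above it, although the L6F intervals (0.970 to 1.41 and 0.888 to 1.29) include equality. The difference was not tested, since each condition was 1 culture. In CPM the gene was lower than at rest in all 5 stimulated cultures. The ratio per cell also moves with the depth of the cells, whose medians were 6943, 6996 and 7114 UMIs with M9C, 6050 and 6354 UMIs with L6F and 1056 UMIs at rest, and its part in the difference was not tested.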

How the results depend on the processing

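No paired analysis was possible because each condition was 1 culture, and the samples that share replicate number 1 are the RNA and hashtag libraries of the same pool. The alternatives changed counts of members past 2-fold through the scale of UMIs per cell, the 50 CPM minimum and settings that left few rested cells, among others. Cdk6 and Cdk4, whose ratios lay near the 2-fold line, also dropped out under some settings. Of 192 such counts 152 stayed within 1.5 times and 40 moved.

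By UMIs per cell, 7 members were higher and 0 lower than at rest in all 5 comparisons, and log2 ratios turned positive for Cdk6 at 20 pmol M9C (1.48) and for Cdkn1b at 80 (0.22) and 20 pmol L6F (0.0947). With TMM factors (1.09 at rest and at the lowest 0.976 elsewhere), with no gene minimum (1583 rested cells), without cells above 3 times the median UMIs (742 rested cells) or with cells thinned to 1000 UMIs (464 rested cells), 1 member was lower at 20 pmol M9C, not 2. With totals without ribosomal protein, mitochondrial, Malat1 and Gm42418 UMIs, 2 were lower at 2 and 0.2 pmol M9C and at 80 pmol L6F, and 3 were higher in all 5 comparisons, since Cdk4 dropped out. The median of all genes against rest was then -0.23 to -0.22, and 0.25 to 0.27 with TMM factors. With those totals, with no minimum CPM and with thinned cells, 1 member (Cdkn1a) was at least 2-fold higher with M9C than with L6F at 20 pmol. A minimum of 50 CPM left 2 higher (Ccne1 and Cdk4) in all 5 comparisons.

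A minimum of 1000 genes kept 47 rested cells. Then 1 member (Ccnd2) was higher than at rest in 4 comparisons and 0 at 80 pmol L6F, 2 were lower at 2 and 0.2 pmol M9C and at 80 and 20 pmol L6F, and Ccne1 had log2 ratios of -0.40, -0.36, -0.21, -0.44 and -0.39 (20, 2 and 0.2 pmol M9C, 80 and 20 pmol L6F). A hashtag share of 95% kept 19 rested cells with 41255 UMIs. There 1 member (Cdk4) was higher in all 5 comparisons and 1 lower at 20 pmol M9C. In the same order the log2 ratios were -0.82, -0.68, -0.67, -0.84 and -0.99 for Ccne2 and -2.06, -2.02, -2.17, -1.95 and -2.33 for Cdk2. These, and no others printed here, are lower bounds against the floor of 3 counts, as no rested UMI of either gene was left, and they show no change of direction. Ccne1 gave -0.0680, -0.0610, -0.15 and -0.0694 at 20 and 2 pmol M9C and 80 and 20 pmol L6F, and Cdkn1a -1.55 and -1.52 at 20 and 2 pmol M9C. Both settings leave few rested cells by construction, and no other cause was tested.

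HTODemux calls (850 rested cells) and leaving out cells with UMIs of other cell types (649 rested cells) moved no count past 1.5 times, although Cdk4 dropped out of the higher members in all 5 comparisons with HTODemux calls. Between the peptides at 20 pmol, log2 ratios over all settings were -0.70 to -0.86 for Cdkn1b, -0.26 to -0.37 for Cdk6 and 1.02 to 2.41 for Cdkn1a. Depth limits what rested cells show: 3, 2 and 1 UMIs stand behind Cdk2, Cdkn1a and Cdkn2c there.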
